A study of Arabidopsis thaliana with 12 samples.

Results

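Transcript levels at midnight were set against those at midday in the aerial part of Arabidopsis thaliana seedlings, with 3 arrays harvested at 12am and 3 at 12pm, out of 12 arrays in 4 time groups of 3. All seedlings were wild type plants of the Columbia background, 10 days old, grown on agar plates of Murashige and Skoog salts with 1% sucrose in cycles of 16 h of light and 8 h of dark. Lights came on at 6am, so the 12am plants were in the dark, 18 h after lights on, and the 12pm plants were in the light, 6 h after it. The arrays of 6am (0 h) and 6pm (12 h) enter the same fit and are otherwise used only to place the midnight and midday levels in the day. The series also names a line that overexpresses CCA1 and polysomal RNA, neither of which was analysed here. Clock time and light or dark go together in these groups and cannot be told apart. Nothing in the labels ties the replicates to separate cultures, and the spread behind each p-value may therefore be technical.

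In plants, a circadian clock of mutually repressing transcription factors runs through day and night, and light acts on transcripts both through it and directly. Leaves fix carbon and store starch in the day and live on that store at night, and seedling shoots keep expanding in both periods. Each seedling shoot is a mixture of cell types, so fewer cells of a type and less RNA per cell cannot be told apart in any of the differences below.

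Levels are log2 values of single-channel Affymetrix arrays as the authors normalized them with GCRMA, 1 unit being a doubling. The comparison took the 14185 of 22746 non-control probe sets that reached a log2 of 4 on at least 3 of the 12 arrays. A probe set was called when limma's moderated test gave a Benjamini-Hochberg adjusted p below 0.05, and differences are 12am minus 12pm with the standard error of the model. Group means under 4 were raised to 4 before a fold was taken, and such a fold is written "at least". Only 7718 of the tested probe sets name 1 gene in the annotation used here, and they stand for 7676 genes.

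The midnight arrays correlated with each other at 0.970 to 0.993 and the midday arrays at 0.981 to 0.992 over the tested probe sets. At both times the pair of replicates 2 and 3 was the closest, and replicate 1 stood somewhat apart. The gap between 3' and 5' control probe sets, a sign of RNA integrity and labelling length, did not move one way. For ubiquitin it was 3.61 to 3.66 at 12am and 3.16 to 3.21 at 12pm, for actin 7.06 to 7.35 at 12am and 7.36 to 7.75 at 12pm, and for GAPDH 4.05 to 4.41 at 12am and 3.34 to 4.20 at 12pm. The part of these gaps in the results was not tested. The leaf marker RCA, the activase of Rubisco, lay at 13.28 to 13.52 at 12am and 13.36 to 13.53 at 12pm. PYK10, a beta-glucosidase abundant in roots, was measured at 11.19 to 11.72 at 12am and 11.30 to 11.64 at 12pm, and each was the only tested member of its marker list.

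Of all tested probe sets 3987 (28.1%) differed between the times, 1970 (13.9%) higher and 2017 (14.2%) lower at midnight. The numbers in the 2 directions were close, but the large changes were mostly reductions. Called differences of at least 2-fold were 692 (4.88%) higher and 947 (6.68%) lower at midnight, those of at least 8-fold 42 higher and 120 lower, and those of at least 16-fold 6 higher and 46 lower, with means under 4 set to 4. Counted with 1 probe set per gene, 2066 genes (26.9%) were called, 1037 (13.5%) higher and 1029 (13.4%) lower, and the median difference over the genes was 0.03. Arrays of the 2 times did not overlap for 6439 probe sets (45.4%). Among the 3547 dimmest probe sets 11.5% were higher and 15.8% lower at midnight, and among the 3546 brightest 14.8% were higher and 13.6% lower.

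**Figure D1:**
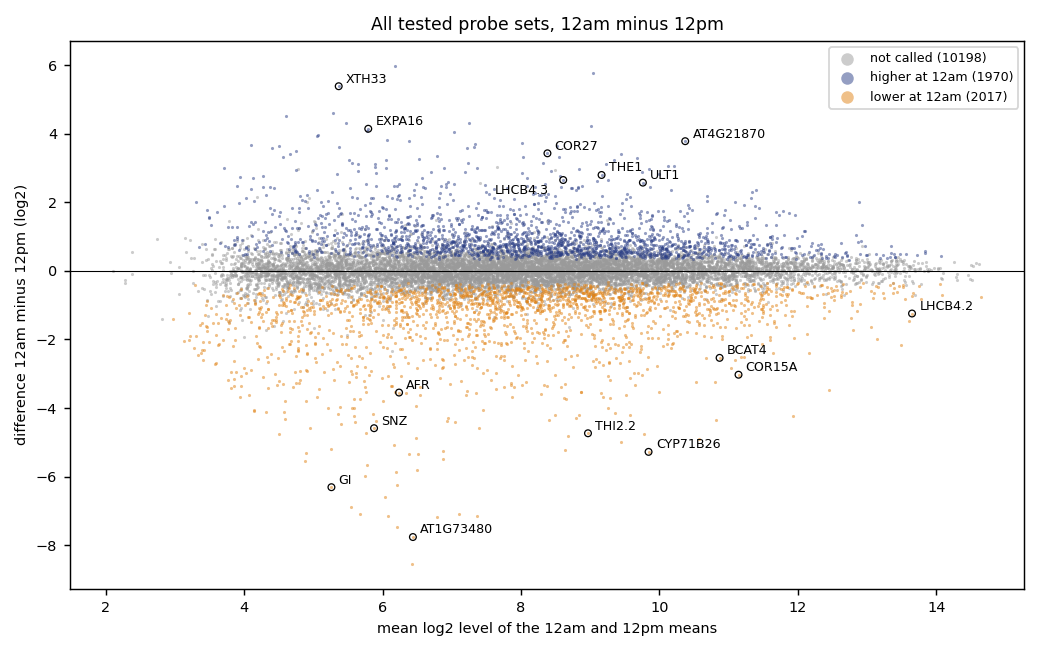
Difference 12am minus 12pm (log2, vertical axis) against the mean of the 12am and 12pm levels (log2, horizontal axis) for the 14185 tested probe sets. Blue points are the 1970 called higher at midnight, orange points the 2017 called lower and grey points those not called. The named circles run from -7.76 for AT1G73480 to 5.39 for XTH33, and the orange cloud reaches farther from 0 than the blue one.

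The 2 largest computed increases among genes with a symbol were in cell wall genes. XTH33, an enzyme that cuts and rejoins xyloglucan in the wall, had 7.88, 8.21 and 8.08 at 12am, against 3.24, 2.30 and 2.48 at 12pm. Every midnight array was high and every midday array lay below a log2 of 4, so the gene was at least 16.7-fold higher at midnight (difference 5.39 ± 0.24, adjusted p = 5.09e-08). EXPA16, an expansin, a class of proteins that loosens walls without hydrolysis, had 8.06, 7.74 and 7.79 at 12am, against 3.97, 3.50 and 3.68 at 12pm. All its midday arrays too were under 4, and it was at least 14.6-fold higher at midnight (adjusted p = 1.43e-06). XTH18 had 8.75, 7.75 and 7.94 at 12am, against 6.86, 4.98 and 5.26 at 12pm, a difference of 2.45 ± 0.49, with replicate 1 the highest array of each group and no overlap between them.

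Among the 17 tested expansins and xyloglucan enzymes 7 were higher and 4 lower at midnight, against 13.5% and 13.4% of all genes, and their median difference was 0.09. The other 4 higher members were the expansin EXPA20 (at least 3.13-fold), the xyloglucan enzyme XTH16 (3.54-fold) and the expansin-like genes EXLA1 (3.09-fold) and EXLA2 (3.48-fold). The family was thus split, since EXPB1 (at least 4.79-fold), EXPA8 (4.31-fold), EXPB3 (3.61-fold) and XTH32 (3.12-fold) were lower at midnight. EXPB1, a beta-expansin, had 2.57, 3.78 and 3.68 at 12am, against 5.47, 6.65 and 6.67 at 12pm, and its groups did not overlap. EXPA8 had 5.55, 6.94 and 6.80 at 12am, against 7.93, 8.97 and 8.72 at 12pm, with replicate 1 lower than the others at both times. EXLB1 had 6.43, 7.78 and 7.93 at 12am, against 5.91, 6.36 and 6.48 at 12pm and did not pass the test (adjusted p = 0.0769), although each midnight array lay above the midday array of the same number. With the replicate number as a block it was called (adjusted p = 0.00495).

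THE1, a receptor-like kinase that senses the state of the wall, had 10.59, 10.55 and 10.55 at 12am, against 7.79, 7.92 and 7.58 at 12pm. The midnight arrays were nearly equal and lay far above the midday ones, with a 6.96-fold difference (adjusted p = 1.39e-06). RALFL22, of a family of secreted peptides of which some bind receptors related to THE1, had 8.82, 9.29 and 9.33 at 12am, against 6.98, 7.50 and 7.51 at 12pm, 3.52-fold higher at midnight. Where 13.5% of all genes were higher and 13.4% lower, 2 of the 6 tested RALF-like genes were higher and 0 lower by limma. At an unadjusted p below 0.05 also 0 were lower. The second, RALFL33, had 9.21, 9.82 and 9.51 at 12am, against 8.67, 8.67 and 8.52 at 12pm, a call with an adjusted p of 0.0368 that was lost on leaving out any one of 5 arrays, with up to 0.133 without 12am replicate 2. With replicates 2 and 3 alone 4 of the 6 were higher, and the share of all genes called higher was then 17.7%.

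Of 15 tested trichome birefringence-like genes, whose known members acetylate wall polysaccharides, 4 were higher and 0 lower at midnight by limma, with 0 lower at an unadjusted p below 0.05 as well. Of all genes 13.5% were higher and 13.4% lower. TBL45 had 9.43, 10.24 and 10.16 at 12am, against 7.26, 7.09 and 7.17 at 12pm and was 6.83-fold higher at midnight. TBL38 was 3.25-fold higher, TBL40 (AT2G31110) 2.84-fold and TBL37 2.66-fold. The remaining 11 had differences from -0.13 to 0.60. The genes CSLA03, CSLC04, PMEPCRF, SKU5 and GH9C2 were chosen after their values were seen, and their families were not counted. CSLA03, of a family that makes mannan backbones, was higher by 1.70 ± 0.20. CSLC04, which makes the glucan backbone of xyloglucan, was higher by 1.11 ± 0.22, and the pectin methylesterase gene PMEPCRF by 1.12 ± 0.17. EXORDIUM (EXO), an extracellular protein that promotes growth in response to brassinosteroid, had 8.48, 8.38 and 8.04 at 12am, against 5.62, 5.81 and 5.82 at 12pm, 5.85-fold higher at midnight. SKU5, an extracellular membrane-anchored protein of directional growth known from roots, was 2.14-fold higher, a call lost without 12am replicate 1 (adjusted p = 0.0518) or 12pm replicate 3 (0.0662). GH9C2, of a family of glycosyl hydrolases that act on cellulose, was instead at least 2.24-fold lower at midnight.

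The microtubule-linked TRM and calmodulin-binding IQD families gave 5 higher and 0 lower genes of 18 tested, against 13.5% and 13.4% of all genes, with a median difference of 0.23. By limma 0 were also lower with replicates 2 and 3 alone, 1 was lower at an unadjusted p below 0.05, and the lowest difference was -0.33. TRM28 had 7.54, 7.56 and 7.53 at 12am, against 6.38, 5.86 and 6.01 at 12pm, and no midday array came near the midnight ones. IQD24 was higher by 1.00 ± 0.18, and TRM26 and IQD22 by 1.02 and 1.07. The TRM26 call was lost without 12pm replicate 3 (adjusted p = 0.0640) and the IQD22 call without 12am replicate 1 (0.0868), 12pm replicate 2 (0.105) or 12pm replicate 3 (0.0886). Of 8 tested tubulin and actin genes ACT11 alone was called, with 7.34, 7.35 and 7.05 at 12am, against 6.03, 6.09 and 5.62 at 12pm.

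**Figure D2:**
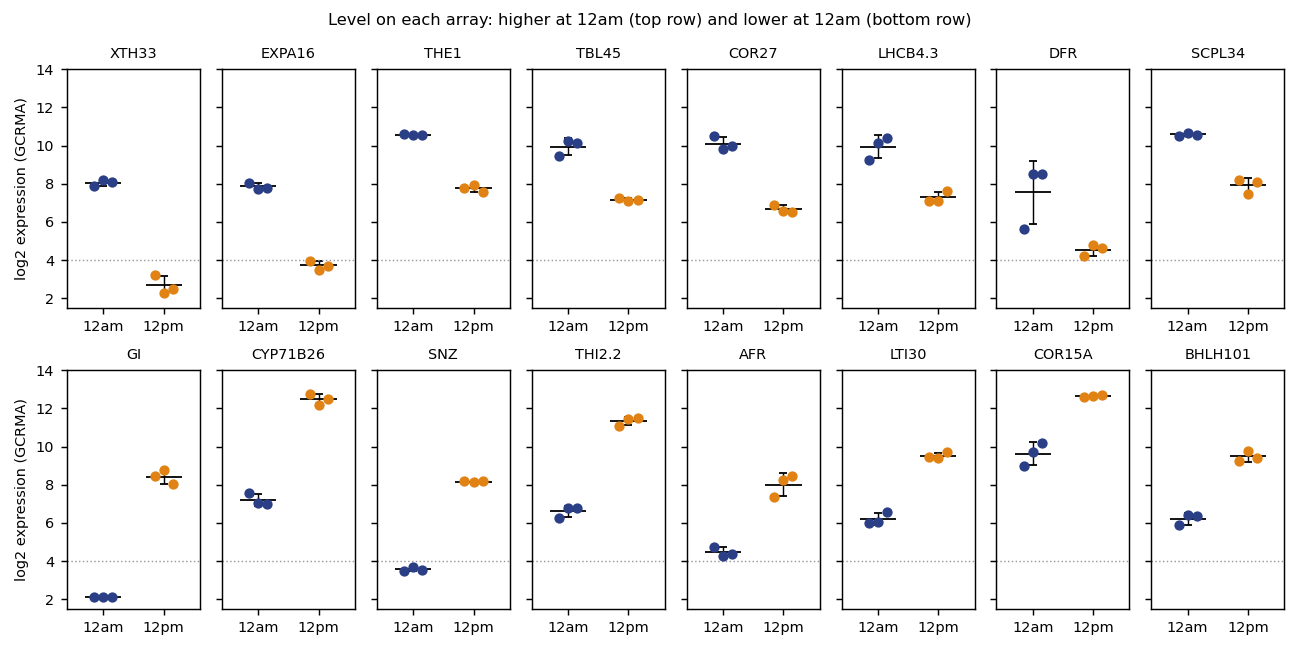
Log2 level (vertical axis) on each of the 3 arrays at 12am (blue, left) and 12pm (orange, right) for 8 genes that were higher at midnight (top row) and 8 that were lower (bottom row). Horizontal bars are means, error bars SD over 3 arrays, and the dotted line is the log2 of 4 used as the minimum. In all 16 genes the groups do not overlap, which the choice of the largest changes required. Of all tested probe sets 45.4% did not overlap. The 12am replicate 1 of DFR (5.64) lies well under the other 2 midnight arrays.

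Of 30 loci on the clock list 5 were tested and all 5 were called, 2 higher and 3 lower at midnight. Of all genes 13.5% were higher and 13.4% lower, and most clock genes had no named probe set. GIGANTEA (GI), a clock protein that also promotes flowering, had 2.1, 2.1 and 2.1 at 12am, against 8.48, 8.75 and 8.02 at 12pm. The midnight arrays all sat at the lowest value of the table, so GI was at least 21.3-fold lower at midnight. COR27, a small protein that links the clock to cold tolerance, had 10.51, 9.82 and 9.96 at 12am, against 6.89, 6.59 and 6.51 at 12pm, and AT4G33980, listed by locus, had 8.84, 7.77 and 7.82 at 12am, against 5.77, 5.21 and 4.81 at 12pm. The groups did not overlap in either gene, which were 10.8-fold and 7.35-fold higher at midnight. AT5G52660 fell by 1.59 ± 0.17 (SE). AT4G01280 fell by 0.91 ± 0.23, a call lost without 12am replicate 3 (adjusted p = 0.0585) or 12pm replicate 1 (0.0518).

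In light signalling, AFR, an F-box protein of the phytochrome A pathway, had 4.74, 4.26 and 4.38 at 12am, against 7.35, 8.23 and 8.45 at 12pm. All midnight arrays were low, and AFR was 11.7-fold lower at midnight (adjusted p = 1.55e-05). HYH, a bZIP factor that acts with the light regulator HY5, was higher at midnight (10.28, 9.80 and 9.71 at 12am, against 9.25, 9.15 and 8.86 at 12pm), and AT1G72390 did not pass the test (adjusted p = 0.341). BLUS1 (AT4G14480), a kinase of blue-light responses in guard cells, was 2.14-fold lower. SNZ, a repressor of flowering of the AP2 type, had 3.49, 3.71 and 3.55 at 12am, against 8.18, 8.12 and 8.21 at 12pm. The midday arrays were nearly equal and SNZ was at least 17.99-fold lower at midnight, while its relative SMZ lay at 4.11 to 4.21 at 12am and 4.26 to 4.35 at 12pm, close to the minimum level (adjusted p = 0.602).

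Late embryogenesis abundant (LEA) proteins, hydrophilic proteins that accumulate on drying and cold, were mostly lower at midnight. Of 11 tested members 9 were lower and 0 higher by limma, against 13.4% and 13.5% of all genes, and the median difference was -1.51. At an unadjusted p below 0.05 the numbers were again 9 and 0. LTI30, a dehydrin, had 6.00, 6.05 and 6.56 at 12am, against 9.45, 9.39 and 9.71 at 12pm, a 9.94-fold difference. COR15A, which stabilises chloroplast membranes in frost, had 8.98, 9.74 and 10.17 at 12am, against 12.61, 12.65 and 12.71 at 12pm, 8.16-fold lower at midnight. Its midday arrays were nearly equal, and its midnight arrays were low and more scattered. COR15B, a close neighbour of COR15A with which it could share probes, fell by 1.53. The dehydrins COR47 and HIRD11 (AT1G54410) differed by -0.79 and -0.71, from bright levels of 11.80 ± 0.13 at 12am and 12.59 ± 0.11 at 12pm and 13.73 ± 0.20 at 12am and 14.44 ± 0.17 at 12pm (SD, n = 3 each). LEA18 had 6.40, 5.003 and 5.31 at 12am, against 6.87, 7.67 and 7.67 at 12pm, with 12am replicate 1 the highest midnight array. M17 was 2.86-fold and M10 at least 1.49-fold lower, and the uncalled members LEA26 (AT2G44060) and LEA27 (AT2G46140) differed by -0.13 and 0.37.

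The cold-response list shares 5 members with the LEA list. These same 5 were the lower ones among its 7 tested members, so the count adds no further gene. COR27 was the 1 that was higher. Of all genes 13.4% were lower and 13.5% higher. TIL and SIS were not on this list and were chosen after their values were seen. TIL, a temperature-induced lipocalin, had 8.36, 8.44 and 8.76 at 12am, against 10.41, 10.39 and 11.02 at 12pm, and SIS, named salt-induced serine-rich, had 5.76, 5.13 and 4.92 at 12am, against 8.31, 8.50 and 8.33 at 12pm. Neither overlapped between the groups, and they were 4.24-fold and 8.63-fold lower at midnight. The zinc-finger gene STZ (ZAT10), which responds to touch, wounding and cold, had 4.91, 5.31 and 5.74 at 12am, against 7.74, 6.42 and 6.76 at 12pm and was not called on 12 arrays (adjusted p = 0.177), although its groups did not overlap. It was the only tested member of the touch and wounding markers.

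Co-chaperones, which assist the folding machinery, were in part lower at midnight, 5 of 13 tested, with 0 higher by limma and 2 higher at an unadjusted p below 0.05. Of all genes 13.4% were lower and 13.5% higher. Of the co-chaperones 1 was called higher with replicates 2 and 3 alone and 1 with the replicate number as a block. FKBP65, also named ROF2 (AT5G48570), a heat-responsive immunophilin, had 6.23, 4.97 and 5.19 at 12am, against 8.64, 8.07 and 8.12 at 12pm, 7.02-fold lower at midnight. Fes1A and Fes1B, related to exchange factors of Hsp70, were at least 2.19-fold and 2.61-fold lower, and ATERDJ2B, of the J-domain proteins of the endoplasmic reticulum, 2.41-fold. Some of their paralogs were not called. ATERDJ2A differed by 0.43 ± 0.19 (adjusted p = 0.122), and Hop1 and Hop2 by 0.14 and 0.10. Hop3 was at least 1.71-fold lower, a call lost without 12am replicate 2 or 3 (adjusted p = 0.0603 and 0.0547) or 12pm replicate 3 (0.0664).

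**Figure D3:**
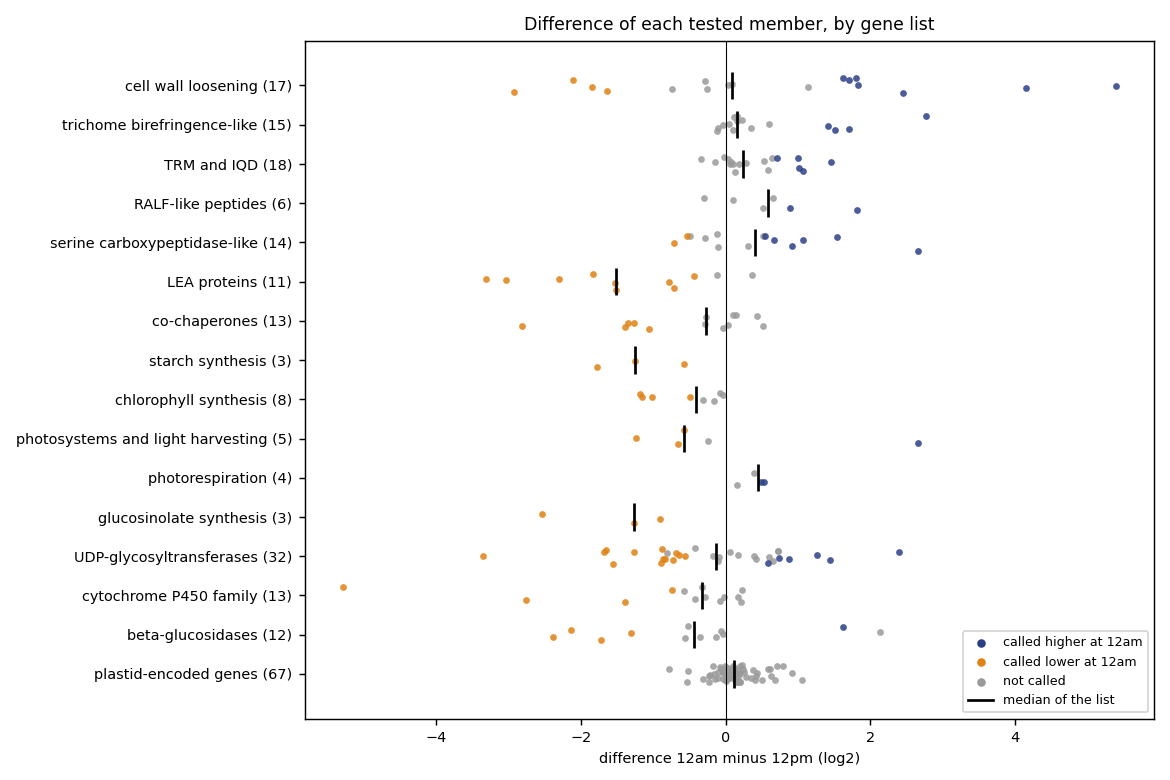
Difference 12am minus 12pm (log2, horizontal axis) of each tested member of 16 gene lists, with the number of tested members in brackets. Blue points were called higher at midnight, orange points lower and grey points not at all, and black bars are list medians. LEA proteins have 9 orange points of 11 and a median of -1.51, cell wall loosening genes 7 blue and 4 orange points of 17, and the 67 plastid-encoded genes none.

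Of 14 listed loci of starch synthesis only 3 were tested, and all 3 were lower at midnight, against 13.4% of all genes. APL3 and APL4, large subunits of the enzyme that makes ADP-glucose for starch, had 5.56, 6.16 and 6.14 at 12am, against 7.09, 7.25 and 7.28 at 12pm for APL3 and 4.09, 3.52 and 3.70 at 12am, against 5.80, 5.29 and 5.57 at 12pm for APL4. The groups did not overlap in either gene, and they were 2.38-fold and at least 2.93-fold lower at midnight. SBE2.2, a starch branching enzyme, had 10.67, 10.75 and 10.73 at 12am, against 11.35, 11.17 and 11.37 at 12pm. Its call was lost on leaving out any 1 of 5 arrays, with the highest adjusted p of 0.0923 without 12pm replicate 3. With replicates 2 and 3 alone 2 of the 3 genes were called lower, against 18.9% of all genes. DPE1, which handles maltotriose in starch breakdown, was 2.59-fold lower, and PWD, which phosphorylates starch for breakdown, differed by 0.23 ± 0.13 (adjusted p = 0.208). 

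Sugar-starvation genes were not called on 12 arrays, 0 of 4 in either direction by limma, with replicate 1 set apart. Of all genes 13.5% were higher and 13.4% lower. Among the 4, MCCA, a subunit of the leucine-breakdown carboxylase, had 12.66, 10.89 and 10.93 at 12am, against 12.23, 11.64 and 11.77 at 12pm. The acyl-CoA dehydrogenase IVD had 10.82, 9.23 and 9.37 at 12am, against 10.55, 9.68 and 9.96 at 12pm. In both, 12am replicate 1 was the highest of the 6 arrays and the other midnight arrays were the lowest. With replicates 2 and 3 alone 3 of the 4 were called lower at midnight, against 18.9% of all genes. At an unadjusted p below 0.05 the count on 12 arrays was also 0.

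Chlorophyll-synthesis genes gave 4 lower and 0 higher of 8 tested by limma, with the same 2 numbers at an unadjusted p below 0.05, against 13.4% and 13.5% of all genes. The uroporphyrinogen decarboxylase genes HEME1 and HEME2 differed by -1.16 ± 0.18 and -1.18 ± 0.16. PORB, a protochlorophyllide reductase that needs light, had 11.66, 11.55 and 11.63 at 12am, against 12.60, 12.57 and 12.75 at 12pm. Midnight and midday arrays of these 3 genes were about 1 log2 unit apart and did not overlap. The geranylgeranyl reductase AT1G74470 fell by 0.49 ± 0.15, a call lost without 12am replicate 2 or 3 or 12pm replicate 2 or 3, with adjusted p up to 0.106. GSA1, HEMB1, CHLI2 and CHLM, the others tested, differed by -0.31 to -0.04. HEMA2, a gene for glutamyl-tRNA reductase at the start of the pathway that was not on the list, was higher at midnight, with 7.21, 6.92 and 6.64 at 12am, against 5.54, 5.60 and 5.94 at 12pm.

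Antenna genes of 1 family moved in opposite directions. LHCB4.3, an isoform of the photosystem II antenna protein CP29, had 9.26, 10.12 and 10.42 at 12am, against 7.10, 7.12 and 7.63 at 12pm, and LHCB4.2, another isoform, had 13.09, 13.03 and 12.97 at 12am, against 14.25, 14.22 and 14.34 at 12pm. All midnight arrays of LHCB4.3 were above, and all of LHCB4.2 below, the midday ones, 6.28-fold higher and 2.37-fold lower. LHCB4.1, the brightest, differed by -0.24 ± 0.10 (adjusted p = 0.101). The small photosystem II subunits PSBY and PSBW were 1.57-fold and 1.49-fold lower. Of the 5 tested genes on the photosystem list 1 was thus higher and 3 lower, against 13.5% and 13.4% of all genes. Outside the list, and chosen after their values were seen, 2 further genes were lower. These were PSB27, which helps assemble photosystem II (1.77-fold), and PGRL1B, of cyclic electron flow (1.40-fold). TRXF2, a thioredoxin that activates carbon-fixing enzymes in the light, had 10.19, 10.05 and 10.02 at 12am, against 11.20, 11.46 and 11.41 at 12pm and was 2.42-fold lower.

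Genes of carbon fixation and photorespiration differed little. Of 3 tested Calvin cycle genes 1 was higher and 0 lower at midnight by limma, and of 4 photorespiration genes 2 were higher and 0 lower. Of all genes 13.5% were higher and 13.4% lower. At an unadjusted p below 0.05 also 0 of either list were lower. SBPASE, an enzyme of the Calvin cycle, was higher by 0.41 ± 0.12, a call lost without 12am replicate 2 or 3 or 12pm replicate 1 or 2 (adjusted p up to 0.0945), and PRK and RCA differed by 0.08 and -0.04. Of 4 photorespiration genes AT1G32470 was higher by 0.53 ± 0.10 and AT1G11860 by 0.48 ± 0.14. The second was not called without 12am replicate 2 or 3 (0.0881 and 0.0533) or 12pm replicate 1 (0.0928). In organic acid metabolism the isocitrate dehydrogenase subunits IDH-V and IDH-VI were 2.04-fold and 2.40-fold higher, and isocitrate lyase (ICL), of the glyoxylate cycle, was 3.61-fold lower, with 6.04, 5.92 and 5.71 at 12am, against 7.38, 7.78 and 8.06 at 12pm.

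Of the 67 plastid-encoded genes 0 were called in either direction by limma, where 13.5% of all genes were higher and 13.4% lower. At an unadjusted p below 0.05 the number was also 0. Their differences ran from -0.79 for psbD to 1.06 for psaC. The median level over these genes was 9.89, 11.22 and 11.16 at 12am and 10.12, 10.94 and 10.92 at 12pm, so replicate 1 was the low array at both times. With replicates 2 and 3 alone 10 were higher and 2 lower, against 17.7% and 18.9% of all genes, and with the replicate number as a block in the fit 7 were higher and 0 lower, against 19.9% and 18.5%. Labelling was primed with oligo(dT), per the labels, and its part in these values was not tested.

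In glucosinolate synthesis only 3 of 20 listed loci were tested, and all 3 were lower at midnight, against 13.4% of all genes. BCAT4, which starts the lengthening of methionine for aliphatic glucosinolates, had 9.77, 9.46 and 9.57 at 12am, against 11.88, 12.17 and 12.36 at 12pm. UGT74B1, which adds the glucose, had 8.67, 8.86 and 8.39 at 12am, against 9.73, 9.88 and 10.12 at 12pm, and AT2G31790 fell by 0.91 ± 0.16. The groups did not overlap in any of them, and BCAT4 was 5.80-fold lower. ARD4, of methionine salvage, fell by 1.92 ± 0.12, and MGL, which cleaves methionine, fell by 1.95 ± 0.28. Of the glucosinolate transporters GTR2 was 1.82-fold higher at midnight, and GTR1 differed by -0.34 (adjusted p = 0.403).

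On the list of flavonoid and anthocyanin synthesis only DFR and AT4G14090 were tested, and both were called higher, against 13.5% of all genes. DFR, which makes leucoanthocyanidins, had 5.64, 8.54 and 8.49 at 12am, against 4.20, 4.80 and 4.63 at 12pm, and AT4G14090 had 5.16, 7.38 and 7.34 at 12am, against 4.82, 5.07 and 5.19 at 12pm. The groups overlapped in AT4G14090 and not in DFR. In both the first midnight array was far under the other 2, and without it the folds were 15.7 for DFR and 5.03 for AT4G14090, against 8.05-fold and 3.02-fold on all arrays. The AT4G14090 call was lost on leaving out any other of the 5 arrays, with adjusted p of 0.0648 to 0.126. The peroxidase PRX71 (AT5G64120) also had a low first midnight array, with 7.14, 10.56 and 10.65 at 12am, against 7.68, 6.78 and 7.15 at 12pm. It overlapped between the groups, was 10.6-fold higher at midnight without 12am replicate 1, against 4.75-fold on all arrays, and lost its call (adjusted p = 0.0367) without any 1 of the other 5 arrays (0.0509 to 0.146), where the fold fell to as little as 3.13 without 12am replicate 3. BGLU28, a beta-glucosidase, had 3.42, 7.15 and 7.44 at 12am, against 4.29, 3.36 and 3.98 at 12pm and was not called (adjusted p = 0.0837).

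**Figure D4:**
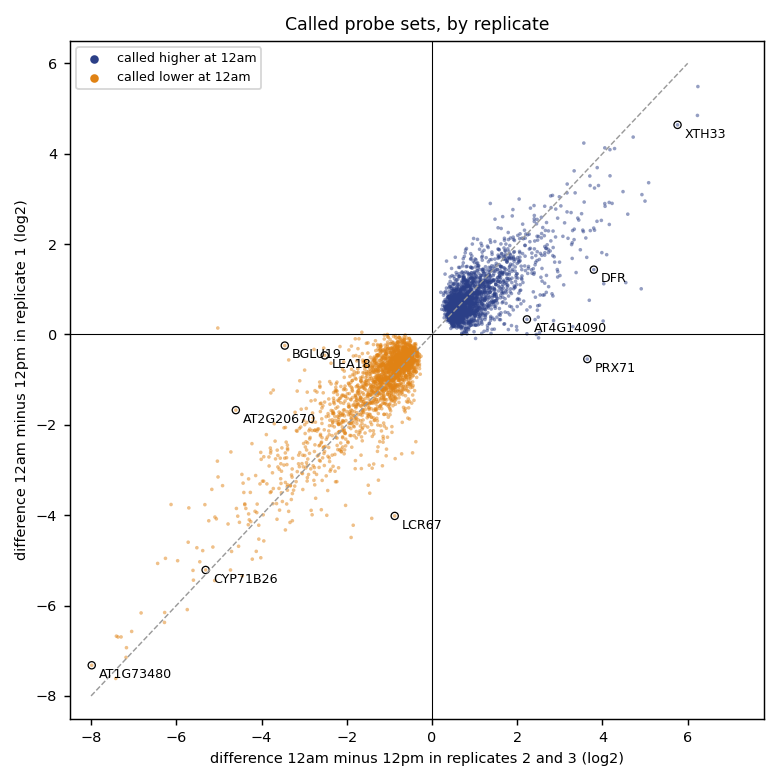
Difference 12am minus 12pm (log2) in replicate 1 (vertical axis) against that in replicates 2 and 3 (horizontal axis) for the 3987 called probe sets, blue for higher and orange for lower at midnight. The dashed line marks equal differences. Replicate 1 took part in these calls. Of the 5359 probe sets called with replicates 2 and 3 alone, 4919 (91.8%) had the same sign in replicate 1, and PRX71, DFR, AT4G14090, BGLU19 and LCR67 lie far from the line.

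UDP-dependent glycosyltransferases, which attach sugars to hormones and specialised metabolites, changed in both directions, 6 higher and 13 lower of 32 tested (median -0.14), against 13.5% and 13.4% of all genes. UGT85A4 had 8.57, 8.94 and 8.90 at 12am, against 6.40, 6.10 and 6.74 at 12pm, and its close relatives diverged, since UGT85A3 was at least 2.02-fold higher and UGT85A5 1.83-fold lower. In the same way UGT71C5 was higher by 1.27 ± 0.22, and UGT71C4 fell by 0.87 ± 0.17. UGT73C1 had 2.33, 2.33 and 2.16 at 12am, against 5.85, 5.45 and 5.59 at 12pm, its midnight arrays near the floor of the table, and UGT76E11 was 3.15-fold lower. UGT78D1, which adds rhamnose to flavonols, was higher by 0.73 ± 0.19, a call lost without 12am replicate 2 or 3 or 12pm replicate 1 (adjusted p of 0.0577 to 0.0660). With replicates 2 and 3 alone 11 were higher and 13 lower, against 17.7% and 18.9%.

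Of 13 tested cytochrome P450 genes 4 were lower and 0 higher by limma, against 13.4% and 13.5% of all genes, and 5 were lower and 0 higher at an unadjusted p below 0.05. With replicates 2 and 3 alone 4 were lower and 1 higher, against 18.9% and 17.7%. CYP71B26 had 7.55, 7.04 and 7.02 at 12am, against 12.76, 12.21 and 12.48 at 12pm, and the 38.8-fold reduction was the largest among genes whose means both reached a log2 of 4. CYP78A9, which affects organ size, had 4.41, 3.86 and 4.47 at 12am, against 6.78, 6.91 and 7.33 at 12pm, and CYP71B35 was 2.62-fold lower. Of 12 beta-glucosidases BGLU16 was 3.08-fold higher, and BGLU40, BGLU44, BGLU45 and BGLU19 were lower. BGLU19 had 5.73, 2.90 and 2.50 at 12am, against 5.98, 6.12 and 6.19 at 12pm, with 12am replicate 1 far above the other midnight arrays and just below the midday ones, and its call was lost without 12am replicate 2 (adjusted p = 0.0567) or 12am replicate 3 (0.0533). The thionin gene THI2.2, of small antimicrobial peptides, had 6.28, 6.76 and 6.76 at 12am, against 11.08, 11.45 and 11.48 at 12pm, and was 26.6-fold lower. LCR67, a defensin-like gene, was lower with 3.74, 5.42 and 6.34 at 12am, against 7.75, 6.86 and 6.64 at 12pm, and its 3.79-fold difference was 2.31 without 12am replicate 1 and 5.70 without 12am replicate 3, with the call lost without 12pm replicate 1 (adjusted p = 0.0743).

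Serine carboxypeptidase-like genes, some of which act as acyltransferases, were higher in 6 and lower in 2 of 14 tested (median 0.41), against 13.5% and 13.4% of all genes. SCPL34 had 10.51, 10.67 and 10.58 at 12am, against 8.22, 7.48 and 8.09 at 12pm, 6.31-fold higher at midnight, and scpl35, scpl31 and scpl50 were higher by 1.53, 1.07 and 0.92. The 2 lower ones, scpl48 and scpl26, differed by -0.72 and -0.53. Each of these 2 calls was lost without some arrays, with adjusted p up to 0.118 for scpl48 (without 12pm replicate 3) and 0.0933 for scpl26 (without 12am replicate 2). BETA-VPE, a vacuolar processing enzyme that matures vacuolar proteins, had 4.96, 4.80 and 4.41 at 12am, against 7.35, 7.96 and 8.09 at 12pm. Its relative GAMMA-VPE fell by 1.08 ± 0.23.

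Methionine sulfoxide reductases, which repair oxidised methionine, were also called in both directions. MSRB9 had 7.62, 9.15 and 9.11 at 12am, against 6.67, 6.81 and 6.70 at 12pm, and MSRB6 had 9.23, 9.28 and 9.10 at 12am, against 10.79, 10.95 and 10.97 at 12pm. The groups did not overlap in either gene, MSRB9 higher and MSRB6 lower, and MSRA5 was higher by 1.07 ± 0.14 while MSRB5 differed by 0.14 ± 0.29 (adjusted p = 0.770). Among tetraspanins, membrane proteins with 4 spans, TET10 was higher by 1.77 ± 0.18, and TET3 fell by 2.12 ± 0.23. ALDH2C4, an aldehyde dehydrogenase of phenolic acid synthesis, was 2.17-fold higher and the stress-induced ALDH7B4 3.13-fold lower.

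Sugar transporters were called in both directions. SWEET11, which exports sucrose toward the phloem, had 11.44, 11.71 and 11.53 at 12am, against 10.37, 10.76 and 10.83 at 12pm, and SWEET1 was higher by 0.76 ± 0.16. SWEET15, also named SAG29 for its rise in senescence, had 3.38, 3.38 and 3.60 at 12am, against 6.22, 6.68 and 6.19 at 12pm, and its midnight arrays were all under 4, at least 5.15-fold below midday. Of the tonoplast monosaccharide transporters TMT1, with all midday arrays under 4 and a midnight mean of 4.38, was at least 1.30-fold higher. TMT2 fell by 1.26 ± 0.23. SFP2, a sugar transporter-like gene, was 4.67-fold lower. In the NPF family, which carries nitrate and other small ions and metabolites, NPF6.4 (AT3G21670) had 6.56, 6.52 and 6.46 at 12am, against 8.41, 9.34 and 9.22 at 12pm and NPF6.2 (AT2G26690) was 2.90-fold lower. ALN, allantoinase of purine breakdown, had 6.64, 7.38 and 7.81 at 12am, against 5.19, 5.19 and 5.25 at 12pm and was 4.20-fold higher at midnight. The glutamate receptor-like GLR3.3, a channel of long-distance wound signals, was 2.56-fold lower.

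Among regulators, ULT1, a chromatin-linked regulator of meristems, had 11.22, 10.92 and 11.003 at 12am, against 8.63, 8.52 and 8.27 at 12pm, 5.96-fold higher at midnight. RR16, a response regulator that dampens cytokinin signalling, had 7.34, 8.46 and 8.48 at 12am, against 5.62, 5.59 and 5.61 at 12pm, with 12am replicate 1 the lowest midnight array but above all midday arrays. PUB22, a ubiquitin ligase that restrains immune responses, was at least 4.66-fold higher. YAB5 and YAB3, YABBY factors of leaf polarity, were higher by 0.98 ± 0.18 and 0.87 ± 0.19, and MYC4, a bHLH factor of jasmonate responses, by 0.76 ± 0.16.

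Regulators that were lower at midnight included KUA1 (AT5G47390), a MYB factor of leaf cell expansion, with 6.34, 6.81 and 6.77 at 12am, against 8.24, 9.12 and 8.99 at 12pm. UPB1, a bHLH factor known from root growth, was at least 3.86-fold lower, and the clock-linked MYBC1 2.25-fold. XERICO, which raises abscisic acid levels, fell by 1.05 ± 0.20. The F-box gene SKP2A fell by 1.65 ± 0.16, and the gibberellin receptor GID1C was at least 3.03-fold lower. All 3 midnight arrays of each lay below the midday arrays, and the GID1C call was lost without 12am replicate 2 or 3 or 12pm replicate 2 or 3, with adjusted p of 0.0590 to 0.0811.

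The bHLH list was matched by gene name or description and left out the bHLH factors MYC4 and UPB1. Of its 7 tested members 2 were higher and 3 lower, against 13.5% and 13.4% of all genes, among them genes of iron supply. BHLH101, induced by lack of iron, had 5.87, 6.43 and 6.34 at 12am, against 9.23, 9.79 and 9.43 at 12pm, 9.62-fold lower at midnight, and bHLH34, which acts upstream in the same network, fell by 1.12 ± 0.22. AT1G22490 was the third lower gene, with a difference of -2.15 (adjusted p = 0.00332). Of the iron network, bHLH115, also upstream, was higher by 0.65 ± 0.14, and ILR3 and bHLH104 differed by 0.24 and 0.22 without a call. bHLH121 was higher by 0.66 ± 0.21, a call lost without 12am replicate 1 or 3 or 12pm replicate 2 or 3 (adjusted p of 0.0524 to 0.137).

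Other lists are to be read against the 13.5% of all genes that were higher and the 13.4% that were lower. Of 21 PRA1, VPS and SEC trafficking genes 0 were called by limma, 1 was called with replicates 2 and 3 alone, and 3 had an unadjusted p below 0.05. Among 23 ubiquitin-conjugating enzymes and ubiquitin-specific proteases 1 was higher and 2 lower. The bZIP list, matched by gene name or description, left out the bZIP factor HYH, and of its 13 tested members likewise 1 was higher and 2 lower. Of 9 autophagy genes 2 were called, both lower, and of 6 genes of cell division 1, KINESIN-12B, was lower (1.67-fold). The autophagy calls, ATG8B (1.417-fold) and ATG8F (1.33-fold), were lost on leaving out some arrays, with adjusted p up to 0.124 for ATG8B without 12pm replicate 1 and 0.121 for ATG8F without 12am replicate 3.

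Several large changes were in loci for which the annotation gives no symbol. AT1G73480 had 2.67, 2.29 and 2.70 at 12am, against 9.99, 10.57 and 10.40 at 12pm, at least 79.8-fold lower at midnight, and AT4G13800 and AT5G57340 were 29.2-fold and 24.0-fold lower. The AT5G57340 fold was 36.3 without 12am replicate 1. AT1G13650, AT3G46370 and AT2G23840 had midnight means under 4 and bounds of at least 26.6-fold, at least 14.4-fold and at least 15.4-fold. On the other side, AT2G25990 had 7.31, 7.65 and 7.79 at 12am, against 2.95, 2.96 and 3.05 at 12pm, and AT4G21870, AT3G23550 and AT5G03120 were 13.8-fold, 13.0-fold and 10.2-fold higher. Called probe sets that name no single gene numbered 931 higher and 987 lower at midnight.

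Calls were spread over the genome. The share higher at midnight was 12.7% to 14.5% and the share lower 12.1% to 15.2% over the 5 nuclear chromosomes. Of 2416 pairs of neighbouring genes that were both tested, both were higher in 67, both lower in 96 and the calls were opposite in 66. A gene lower at midnight had a lower neighbour in 27.4% of its pairs, where 14.5% of all pair members were lower, and for higher genes the shares were 20.0% and 13.9%. The pair AT3G21660 and NPF6.4 differed by -3.67 and -2.47, and AFR and AT2G24550 by -3.55 and -1.97. Near-identical neighbours could share probes, and their number was not counted.

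The levels at 6am and 6pm place these changes in the day, with the reservation that midnight and midday arrays also chose them. Of the 1970 probe sets higher at midnight 64.0% had their highest mean at 12am, 28.2% at 6am and 7.77% at 6pm. Over all tested probe sets these shares were 23.2%, 28.8% and 23.7%, and the 6am share was not above that of all. These shares do not have the same base, since all tested probe sets could also be highest at 12pm (24.3%). Of the 2017 lower ones 71.7% had their highest mean at 12pm, against 24.3% of all tested. By the choice itself no higher probe set could have its highest mean at 12pm and no lower one at 12am. On a scale with 12pm at 0 and 12am at 1, the median position of 6pm was 0.36 for the higher and 0.45 for the lower probe sets, and that of 6am was 0.65 and 0.73. XTH33 was high at 12am only, with means of 4.19 at 6am and 2.29 at 6pm, whereas EXPA16 still stood at 7.00 at 6am. COR27 was higher at 6pm (11.64) than at either time compared here. COR15A was at 12.79 at 6pm and 6.60 at 6am, and its 12am level lay between. BHLH101, TET3, EXPA8 and SWEET15 had their single highest mean at 12pm.

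**Figure D5:**
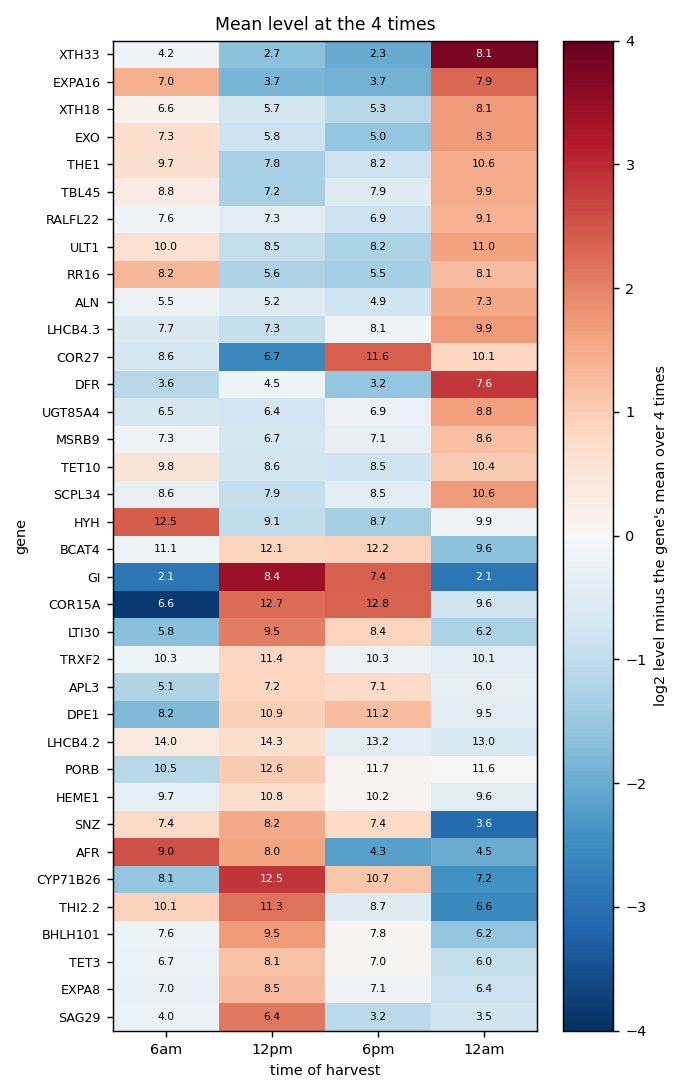
Mean log2 level (number in each cell, 3 arrays) at 6am, 12pm, 6pm and 12am for 36 genes described in the text, coloured by the difference from the gene's own mean over the 4 times. XTH33 and DFR are high at 12am alone, EXPA16 and RR16 at 12am and 6am, and GI, COR15A, DPE1 and BCAT4 at both 12pm and 6pm.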

How the data were processed

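Total RNA of 12 samples was hybridised to 1-colour Affymetrix arrays. The deposited values are log2 levels from GCRMA; the submitters' processing notes name R 3.1 and affy 1.42.3, and the set of arrays that shared a normalization is not stated there. Array medians lay between 5.90 and 6.03 and each array had the same lowest value, with 28.7% to 29.9% of its values within 0.1 of it, so differences of dim transcripts are compressed.

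Of 22810 probe sets 64 controls were dropped. The platform's table left 8730 others unnamed and gave 503 several genes. Names came from it and from RefSeq (TAIR10.1). The brightest probe set stood for the 42 genes that had several. One limma 3.58.1 fit (R 4.3.3) took all 12 arrays with time as 4 levels, leaving 8 residual and 3.44 prior degrees of freedom. It was run on simulated data with independent noise on each array. That simulation had no replicate effect and could not test how one bears on the calls. Alternatives changed the filter, the arrays, the normalization and the fit.

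Named genes were called probe sets that name 1 gene: where the groups do not overlap, the 25 largest changes each way with both means at 4 or more, the 10 largest bounds each way, and from each list the 3 largest rises and the 3 largest falls, plus every tested member of lists of 8 or fewer. The rule also asked for no overlap in list genes, which was not applied and let in PRX71 and UBC32. Others, among them TIL, SIS, ICL, HEMA2, UPB1 and BETA-VPE, were chosen after their values were seen, as were lists built from gene names (LEA, TBL, UGT and others). All members and lists were chosen with earlier results of these data known. Deviations of same-numbered 12am and 12pm arrays correlated (r = 0.349, 0.369 and 0.256), so the numbers were taken as pairs in a fit with a replicate block, which gave 5635 calls. The number of arrays limits the precision. Promoter sequences were not used here.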

Additional observations from a re-analysis of the deposited data

How the results depend on the processing

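The 3987 called probe sets became 3610 without the filter on dim probe sets, 3872 with a minimum of 5, 3979 with the 6 arrays of both times alone, 4142 after quantile normalization, 3976 after centring, 3984 with values under 4 set to 4 and 4053 with a trend and robust eBayes. With a replicate block the count was 5635, and with replicates 2 and 3 alone 5359. Leaving out 1 array gave 3005 to 3939. Of the calls, 46.4% to 53.0% were higher at midnight. For 289 named genes, 4326 differences were recomputed: 159 lost a call, 67 gained one, 4100 did neither, and 0 called values changed sign in these limma fits. Most of these genes were picked as called on the same arrays, so this is no independent support. Of 216 called genes 34 lost the call in at least 1 setting. The replicate block ended no call of a named gene and added 12, among them RALFL24 (adjusted p = 0.00433), AUR2 (0.00992), SWEET17 (0.0156) and TET8 (0.0155). List counts with replicates 2 and 3 alone and with the block were added after seeing the data. The planned search for promoter motifs was not run. The 3 arrays a time limit the precision, gene names are partial, and the lowest value turns many folds into bounds.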
